A study of Homo sapiens with 4 samples.

Results

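Amino acid transport and synthesis genes were followed here in HepG2 cells depleted of METTL3. The set holds 5 genes chosen by name: SLC7A5, SLC3A2 and SLC38A2, which encode amino acid transporters of the plasma membrane, and PHGDH and ASNS, which encode synthesis enzymes. All 5 of 5 are among the 1977 genes that the authors' deposited table of genes lists as changed. The members were chosen with earlier results of these data known, so that count is no result about the set. The 5 genes also account for 8 of the 7251 listed isoforms, 15 of the 2672 listed introns and 1 of the 474 listed exons.

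HepG2 is an established human hepatoma line, and METTL3 is the catalytic subunit of the enzyme that writes N6-methyladenosine into messenger RNA. The knockdown group received an siRNA directed against METTL3, and the control group received a scrambled siRNA. Both groups came from the same line, were transfected with Oligofectamine, had the siRNA renewed at 48 and 96 hours, and were harvested on day 7. Each group had 2 poly(A)-selected libraries. The labels do not say whether the cultures were separate, so the p-values measure only the spread between these libraries, which may be technical. One cell line and one silencing reagent limit the model, and both groups carry the transfection.

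The SLC7A5 protein, also called LAT1, carries large neutral amino acids such as leucine across the plasma membrane, and it works as a dimer with the SLC3A2 glycoprotein, also called 4F2hc or CD98. SLC38A2, also called SNAT2, brings small neutral amino acids such as alanine and glutamine into the cell together with sodium. PHGDH catalyses the first committed step of serine synthesis, and ASNS makes asparagine from aspartate and glutamine. In many cell types all 5 genes belong to the response that the transcription factor ATF4 drives when amino acids are scarce.

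METTL3 itself fell from 955 to 241 normalized counts per the authors' deposited table (authors' adjusted p = 1.71e-61), and its listed isoform fell from 35.6 to 7.47 FPKM. Judged by their values, the tables of genes, isoforms and introns list a feature only where its adjusted p is below 0.05 and its change is at least 2-fold. In the exon table the ratio of group means can be smaller. A feature that is not listed therefore has no value here, and how many features were tested is unknown. Genes, isoforms and introns carry 1 value per group and exons carry 1 value per library, so an error can be given for exons alone. The depth of the libraries is unknown, since each table holds only part of a library. In whole cultures, fewer cells of a type and less RNA per cell cannot be told apart. HepG2 identity could not be checked against hepatocyte markers: 0 of 12 such genes are listed in the gene table, which gives them no level. Of 14 markers of other cell types, 3 are listed and all 3 are higher in the authors' deposited table: CDH5 (161 to 1143 normalized counts), SYP (27.0 to 69.2) and CD14 (4.65 to 24.8). Other markers of the list went the other way per the authors' deposited table: an isoform of CD68 fell from 2.45 to 1.11 FPKM, and VIM introns 6 and 7 fell from 296 to 138 and from 176 to 78.7 normalized counts. The part of these genes in the results on the 5 members was not tested.

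Promoter sequences are shown for the members whose RefSeq promoter (GRCh38.p14, 250 bases before to 50 bases after the start, both strands searched) holds 1 of 3 motifs. The motifs were picked after the promoters had been seen. They are TGATGNAA, the form of the C/EBP-ATF response element that ATF4 binds, present in 3.62% of 35116 promoters, the E-box CACGTG, present in 7.26%, and the AP-1 motif TGACTCA, present in 4.95%. Capitals mark the motif, each sequence runs 5′ to 3′ on the gene's strand, and positions are those of the printed window.
ASNS, chr7:97872449-97872496, minus strand, motif 68 bases before the start: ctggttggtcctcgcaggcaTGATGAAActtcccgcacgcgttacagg
SLC3A2, chr11:62881642-62881688, plus strand, motif 37 bases before the start: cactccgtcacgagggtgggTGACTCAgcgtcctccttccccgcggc
SLC7A5, chr16:87869612-87869657, minus strand, motif 130 bases before the start: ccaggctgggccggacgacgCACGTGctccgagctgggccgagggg
The ASNS window holds the response element through which ATF4 is known to act on this gene. SLC3A2 also held TGATGNAA 38 bases after its start, on the opposite strand. None of these letters was found in the windows of SLC38A2 and PHGDH, which says nothing about the factors. No binding was measured here.

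Adenosine methylation by METTL3 is found mostly in the context GGACT or close variants, often near stop codons. That pentamer is shown because METTL3 was the protein removed, but methylation was not measured. In the GENCODE v29 transcripts that match the listed isoforms, GGACT occurred 5 times in SLC7A5 (4537 bases), 4 times in SLC3A2 (1904 bases), once in SLC38A2 (4888 bases) and 2 times in PHGDH (1882 bases). ASNS had 2 in each of its transcripts (1994 and 2289 bases). Per kilobase, SLC38A2 had 0.205 and SLC3A2 had 2.10, beside a median of 0.971 over 83129 protein-coding transcripts, of which 75.7% held at least one. The occurrence nearest to the stop codon is printed for SLC7A5, SLC3A2, SLC38A2 and ASNS, with GGACT in capitals.
SLC7A5, 583 bases before the stop codon, in the coding sequence: ccgtggccgtGGACTtcgggaacta
SLC3A2, 162 bases before the stop codon, in the coding sequence: cctctcggctGGACTgcaggcctcc
SLC38A2, 1250 bases after the start of the stop codon, in the 3′ UTR: catttgcactGGACTgtcatctcat
ASNS, 53 bases after the start of the stop codon, in the 3′ UTR: tgttggatggGGACTgtgggtagat
SLC7A5 had 1.10 per kilobase, PHGDH 1.06 and the ASNS transcripts 1.003 and 0.874. Both genes that were higher thus had a higher density than the 3 that were lower, by a small margin between SLC7A5 and PHGDH, and with 5 genes this is a description only.

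Both subunits of the LAT1 dimer were higher after METTL3 depletion, while the sodium-coupled transporter SLC38A2 and both synthesis enzymes were lower. Thus 2 of 5 were higher and 3 of 5 were lower, beside 41.3% higher and 58.7% lower among all listed genes, shares close to those of the members, so the split itself is no result about them. The median log2 change of the 5 was -1.15, and that of all listed genes was -1.10.

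SLC7A5 (ENSG00000103257, chromosome 16), the transport subunit of LAT1, had 16515 normalized counts in control cells and 35761 in METTL3-depleted cells in the authors' deposited table. That is a 2.17-fold rise (log2 1.11, authors' adjusted p = 1.13e-81). SLC3A2 (ENSG00000168003, chromosome 11), its heavy chain, went from 6940 to 15282 normalized counts per the authors' deposited table. The rise was 2.20-fold (log2 1.14, authors' adjusted p = 1.13e-74). The partners thus rose by nearly the same factor, but whether the factors differ cannot be tested without replicate values.

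SLC38A2 (ENSG00000134294, chromosome 12) fell from 64215 to 22639 normalized counts per the authors' deposited table, 2.84-fold (log2 -1.50, authors' adjusted p = 1.93e-220). In control cells only 1 listed gene had a higher normalized count, and by adjusted p it stood at rank 7 of 1977. PHGDH (ENSG00000092621, chromosome 1) fell from 3741 to 1337 normalized counts per the authors' deposited table, 2.80-fold (log2 -1.48, authors' adjusted p = 1.28e-93). ASNS (ENSG00000070669, chromosome 7) fell from 3208 to 1447 normalized counts per the authors' deposited table, 2.22-fold (log2 -1.15, authors' adjusted p = 4.77e-56). The falls of the glutamine carrier and of the serine enzyme were of like size, and that of the asparagine enzyme was smaller. In GENCODE v29, genes on the opposite strand overlap SLC7A5, SLC38A2 and ASNS. The sources used here do not say whether counting used strand, so their reads and those of the overlapping genes cannot be told apart. SLC7A5 and ASNS also have pseudogene copies that could share reads.

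**Figure D1:**
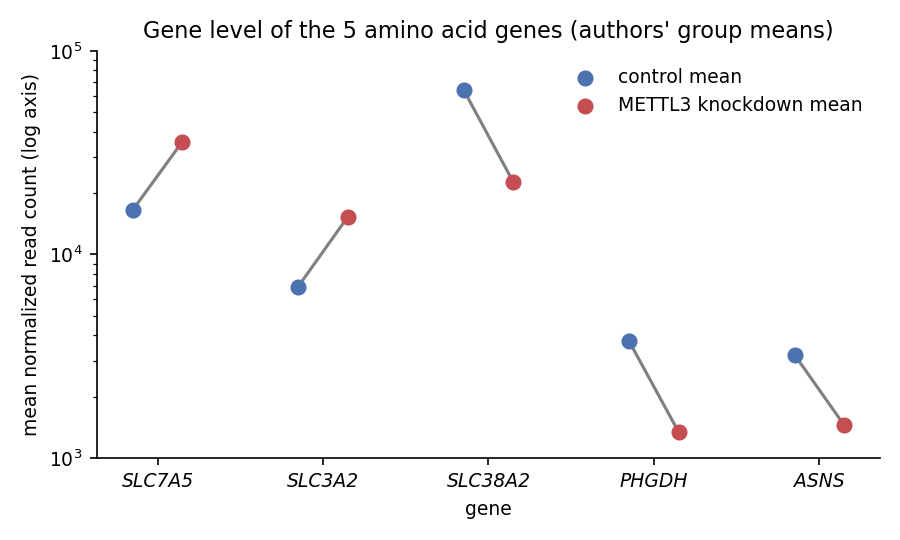
Mean normalized counts of the 5 genes in control and METTL3-depleted cells (log axis), from the authors' deposited table, which gives 1 value per group and no error. SLC7A5 and SLC3A2 are higher in the knockdown, and SLC38A2, PHGDH and ASNS are lower.

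Every isoform of the 5 genes that the authors listed moved the same way as its gene. That is 3 isoforms higher and 5 lower, beside 46.7% and 53.3% of all listed isoforms. The authors' deposited table gives an adjusted p of 0 for 6 of the 8, with 0.00622 for the main SLC38A2 isoform and 2.94e-14 for the minor ASNS isoform. SLC7A5 has 1 listed isoform (ENST00000261622), which rose from 209 to 435 FPKM per the authors' deposited table, 2.08-fold. SLC3A2 has 2 per the authors' deposited table. The main one (ENST00000338663) rose from 158 to 405 FPKM, 2.57-fold, and ENST00000377892 rose from 14.6 to 33.1 FPKM, 2.28-fold. For SLC38A2, ENST00000256689 fell from 684 to 227 FPKM, 3.01-fold, and ENST00000395444 fell from 295 to 96.9 FPKM, 3.04-fold, in the authors' deposited table. The pair fell by nearly the same factor, although no error is available for either.

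PHGDH has 1 listed isoform (ENST00000369409), which fell from 124 to 43.8 FPKM per the authors' deposited table, 2.82-fold. For ASNS, the authors' deposited table has ENST00000394308 falling from 108 to 46.7 FPKM, 2.32-fold, and the minor ENST00000394309 falling from 5.59 to 1.84 FPKM, 3.04-fold. In GENCODE v29 these ASNS transcripts share 11 of 13 exons and the whole coding region, so they differ in untranslated sequence only.

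FPKM is scaled by transcript length, which lets levels be set side by side between genes. Summed over the listed isoforms of the authors' deposited table, SLC38A2 stood at 978 FPKM in control cells, SLC7A5 at 209, SLC3A2 at 172, PHGDH at 124 and ASNS at 114. In METTL3-depleted cells the sums were 438 for SLC3A2, 435 for SLC7A5, 324 for SLC38A2, 48.5 for ASNS and 43.8 for PHGDH. The order changed: SLC38A2 led in control cells and stood below both LAT1 subunits after depletion. The listed FPKM of SLC7A5 per unit of SLC3A2 was 1.21 in control cells and 0.991 after depletion. The gene-level counts rose 2.17-fold for SLC7A5 and 2.20-fold for SLC3A2, so they show little shift between the subunits. Neighbours in either order cannot be tested against each other, since the spread over libraries is unknown, and isoforms that are not listed are not in the sums.

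**Figure D2:**
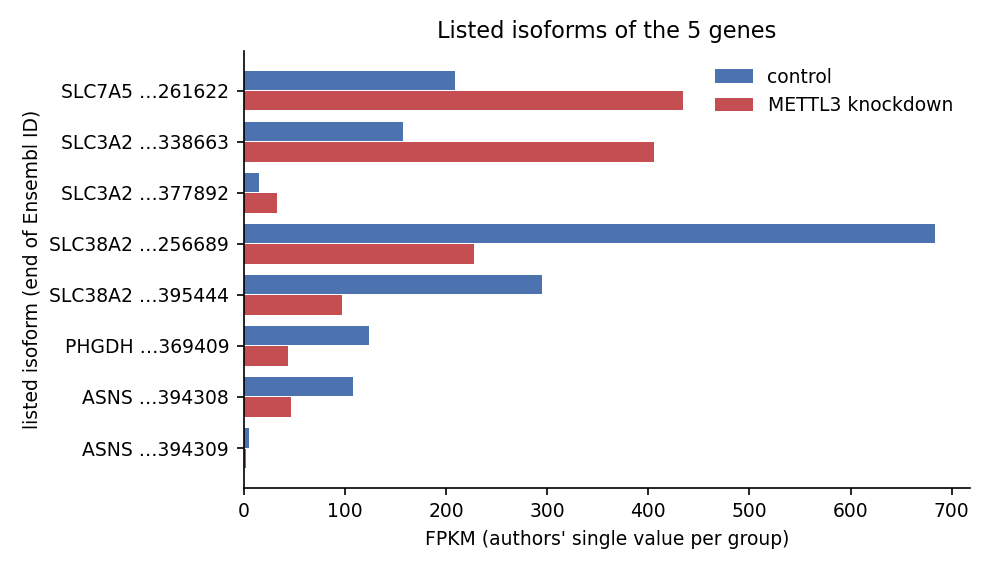
FPKM of the 8 listed isoforms in control and METTL3-depleted cells, from the authors' deposited table, 1 value per group with no error. The 3 isoforms of SLC7A5 and SLC3A2 are higher in the knockdown and the 5 of SLC38A2, PHGDH and ASNS are lower.

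Intron signal in poly(A) RNA can come from unspliced precursors, retained introns or unannotated exons. The listed introns of the members followed their genes: 1 was higher and 14 were lower, beside 28.3% and 71.7% of all listed introns. Intron 8 of SLC7A5, in the authors' numbering, rose from 475 to 972 normalized counts per the authors' deposited table (log2 1.03, authors' adjusted p = 1.34e-08). No intron of SLC3A2 is listed. Intron 5 of PHGDH fell from 334 to 112 normalized counts per the authors' deposited table (log2 -1.57, authors' adjusted p = 9.34e-06). For ASNS, intron 12 fell from 156 to 63.5 normalized counts per the authors' deposited table (log2 -1.30, authors' adjusted p = 0.0126).

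The other 12 introns belong to SLC38A2. Of 1898 loci with a listed intron, 1424 have a single one, and only 3, SLC38A2 among them, have 12 or more. Intron 12 held the highest level, falling from 2376 to 877 normalized counts per the authors' deposited table (log2 -1.44, authors' adjusted p = 2.62e-26). Next came intron 9, with 1353 and 583 normalized counts per the authors' deposited table (log2 -1.22, authors' adjusted p = 1.39e-19). Between them these made up 37.0% and 21.1% of the gene's listed intron signal in control cells. The remaining 10 ranged from 131 (intron 10) to 565 (intron 1) normalized counts in control cells and from 58.6 (intron 10) to 224 (intron 1) after depletion, per the authors' deposited table. Introns 1 to 10, 12 and 13 are listed, and intron 11 is not. In GENCODE v29 the transcript matched to ENST00000256689 has 15 introns. The authors' intron numbers have no coordinates, so how many further introns are not listed is unknown.

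All 12 were lower. Only changes of at least 2-fold are listed and no error is available, so how alike the 12 changes are cannot be judged. Their log2 changes ran from -1.69 (intron 7) to -1.08 (intron 8) with a median of -1.32, beside -1.36 over all listed introns. In 11 of 12 the fall was smaller than that of the gene (-1.50). Summed, the 12 introns went from 6428 to 2541 normalized counts per the authors' deposited table, or from 10.0% to 11.2% of the gene's own normalized count. The single listed introns of the other genes made up 8.93% and 8.39% for PHGDH, 4.86% and 4.39% for ASNS, and 2.88% and 2.72% for SLC7A5 in control and depleted cells. Each of these is 1 intron beside a sum of 12, so the shares do not rank the genes by intron signal. GENCODE v29 annotates 6 retained-intron transcripts among the 14 of SLC38A2. The intron shares join values from separate tables, and the sources used here do not say whether the tables were scaled alike.

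**Figure D3:**
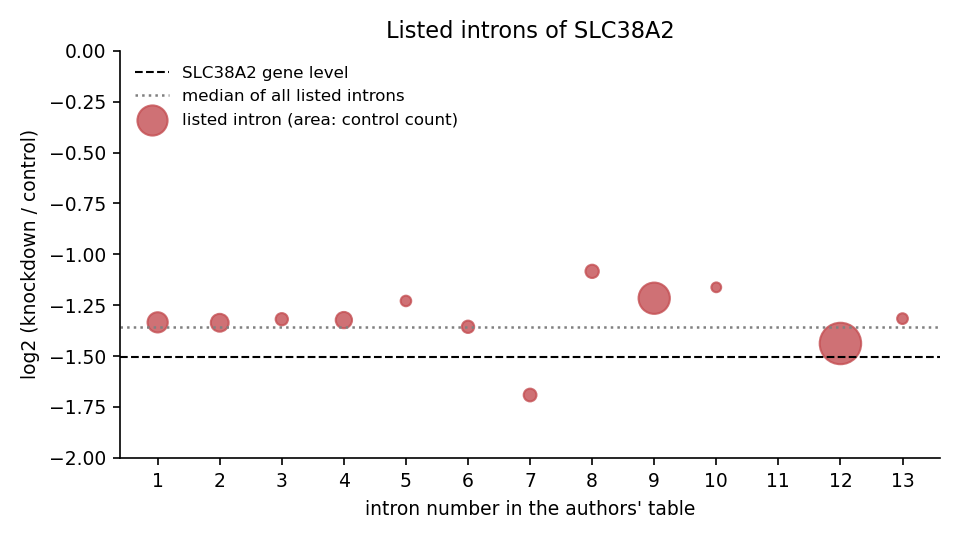
Listed introns of SLC38A2, with the log2 change of each on the y axis and the intron number on the x axis, from the authors' deposited table, with no error. The area of a point stands for the control count, the dashed line for the gene and the dotted line for the median of all listed introns. All 12 introns are lower in the knockdown, between -1.69 and -1.08, and 11 lie above the gene's own change of -1.50.

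The one listed exon, exon 11 of SLC3A2 in the authors' numbering, had about the same normalized count in both groups while its gene's count rose. Its normalized counts were 458 and 515 in control cells, library by library, and 454 and 534 after depletion. The groups overlap, and the spread within each is larger than the difference between them: the means were 486 ± 40.2 (SD, n = 2) in control cells and 494 ± 56.3 (SD, n = 2) after depletion. On the log2(value + 1) scale the difference was 0.02 ± 0.17 (SE), with a 95% confidence interval of -0.45 to 0.49 (limma, Benjamini-Hochberg adjusted p = 0.912 over the 474 listed exons). The call depends on the centring: recentred on the median of the listed exons, which lean lower, the difference was 1.26 (limma, adjusted p = 0.00394), and the gene, recentred on the listed genes, stood at 2.24. Across these exons 96.2% passed the same test, so this one was among only 18 that did not. The authors had chosen the exons on the same libraries, so that share supports nothing by itself. For 2 libraries in each group, the smallest two-sided p of an exact permutation test is p = 0.333.

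The gene's own log2 change of 1.14 lies above the interval of the exon, although the gene's change carries no error of its own. As a share of the gene's mean count, exon 11 went from 7.00% in control cells to 3.23% after depletion. The exon and gene values come from separate tables too. The sources used here do not say whether these were scaled alike, which limits every comparison of the exon with its gene. The authors' deposited table gives this exon a log2 fold change of -1.11 with an adjusted p of 1.44e-10. That value is close to the exon's ratio of means less the gene's log2 change (-1.12), but no source states the scale of the authors' exon value. Among the listed exons with both group means above 0, it had the log2 ratio of means closest to 0. Exon coordinates are not in the table, so which SLC3A2 transcripts contain exon 11 was not determined; the gene has 23 transcripts in GENCODE v29.

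**Figure D4:**
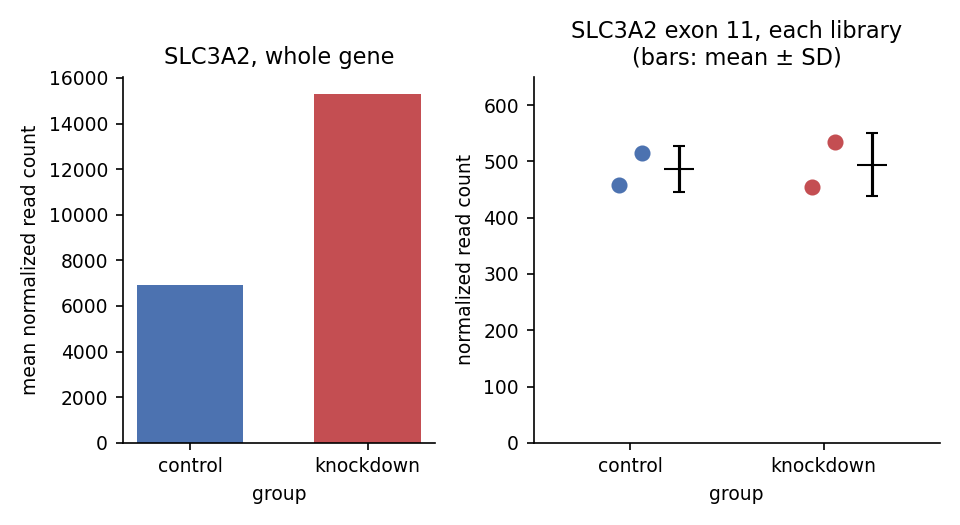
Normalized counts of SLC3A2 exon 11 in each of the 4 libraries (points, with bars for the mean ± SD), beside the mean normalized counts of the whole gene per group from the authors' deposited table. The exon's control values (458 and 515) overlap its knockdown values (454 and 534), while the gene goes from 6940 to 15282.

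Other genes of amino acid transport, synthesis and sensing were taken from 8 lists. Outside the 5 members these hold 163 genes, of which 13 were higher and 9 lower in the gene table. Over all listed genes the shares were 41.3% higher and 58.7% lower, and the counts of each list stand beside the same shares. A gene that is not listed may have changed less than 2-fold or failed the authors' test.

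Among the other heteromeric and system L transporters, 1 of 10 is listed in the gene table. SLC43A1, a system L carrier for branched-chain amino acids and phenylalanine, fell from 244 to 64.4 normalized counts per the authors' deposited table, 3.79-fold. No light chain other than SLC7A5 is listed at gene level, SLC7A8 (LAT2) and SLC7A11 (xCT) included. Of the remaining plasma membrane and lysosomal transporters 4 of 29 rose and 3 fell. SLC6A6, the taurine transporter, rose from 2247 to 7601 normalized counts per the authors' deposited table, 3.38-fold. SLC6A15 rose from 101 to 333 and SLC7A2, a cationic amino acid transporter, from 142 to 327 normalized counts per the authors' deposited table. SLC1A2, a glutamate transporter, fell from 180 to 29.7 normalized counts, 6.06-fold, and SLC36A4 fell from 1764 to 854 per the authors' deposited table. The median log2 change of this list with SLC38A2 was 0.08, near the middle of both directions.

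The partners of PHGDH in serine and one-carbon metabolism had few listed genes. Of 16 genes besides PHGDH, 2 fell and 1 rose in the gene table. MTHFD1, a cytosolic folate enzyme, fell from 5687 to 2720 normalized counts and AMT, of the glycine cleavage system, from 110 to 22.5 per the authors' deposited table. Only 4 of the 16 have a listed isoform, and all 6 of these isoforms were lower, beside 53.3% of all listed isoforms. PSPH, which completes serine synthesis, has isoforms falling from 25.5 to 12.5 and from 5.38 to 2.58 FPKM, and SHMT1, which turns serine into glycine, has one falling from 9.84 to 1.66 FPKM per the authors' deposited table. PSAT1, the enzyme between PHGDH and PSPH, is not listed.

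Around ASNS, 2 of 19 other enzymes of asparagine, aspartate, glutamine, proline and arginine metabolism are listed in the gene table. ASS1, which joins citrulline to aspartate, fell from 2620 to 482 normalized counts, 5.44-fold, and PRODH, a proline-degrading enzyme, rose from 11.2 to 33.5 per the authors' deposited table.

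Of the ATF4 response outside the members, 6 of 26 genes are listed at gene level, and the other 20 have no gene-level value. All 6 were higher, beside 41.3% of all listed genes, with a median log2 change of 1.26. They are the transcription factors ATF3 (309 to 949 normalized counts) and DDIT3 (241 to 534), the pseudokinase TRIB3 (854 to 2101), the leucine sensor SESN2 (330 to 772), the phosphatase subunit PPP1R15A (472 to 960) and the secreted factor GDF15 (281 to 1142) in the authors' deposited table. ATF4 itself is not listed. The isoforms of this list were mixed, with 11 higher and 4 lower (46.7% and 53.3% of all listed isoforms), and so were its introns, with 4 higher and 4 lower (28.3% and 71.7% of all listed introns). CBS, which makes cystathionine from homocysteine and serine, has isoforms falling from 7.23 to 2.79 and from 1.42 to 0.413 FPKM per the authors' deposited table. Its only rising listed isoform went from 0 to 0.314 FPKM, and its listed introns 14 and 15 were lower.

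None of 20 cytosolic aminoacyl-tRNA synthetases, several of them ATF4 targets, is listed in the gene table. Only 3 of the 20 have listed isoforms, and all 5 of these were higher, beside 46.7% of all listed isoforms. WARS1 rose from 4.45 to 18.0 FPKM, KARS1 from 3.57 to 13.4 FPKM and CARS1 from 1.13 to 5.10 FPKM per the authors' deposited table for their isoforms with the smallest adjusted p. Among 31 genes of mTORC1 and amino acid sensing, 2 rose and none fell in the gene table: SESN2, already given, and SESN1, a related sestrin (518 to 1072 normalized counts per the authors' deposited table). In branched-chain amino acid breakdown 2 of 15 fell and none rose. BCAT1, the cytosolic aminotransferase that acts on leucine, fell from 3579 to 1736 normalized counts and AUH, an enzyme of leucine breakdown, from 235 to 95.6 per the authors' deposited table.

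**Figure D5:**
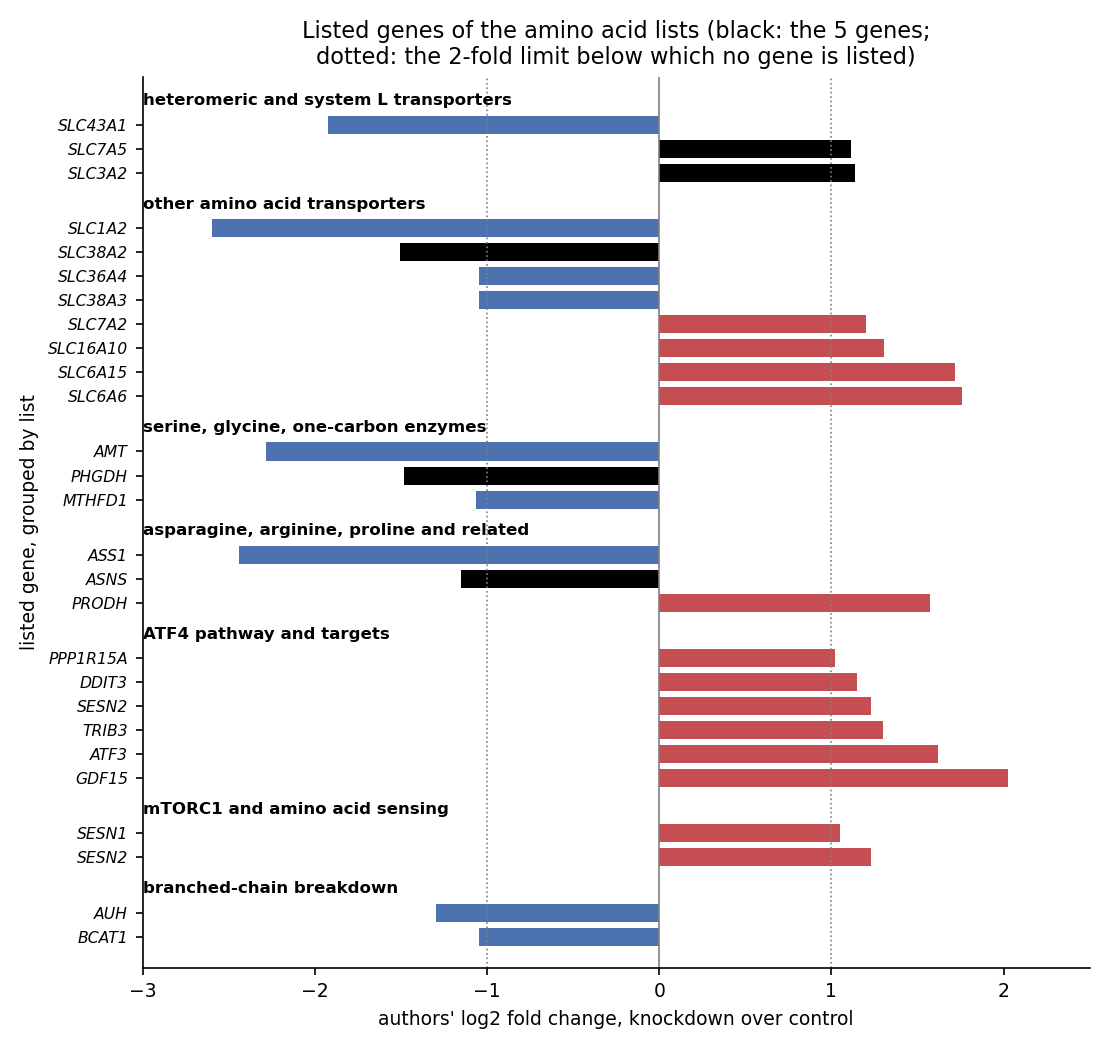
Log2 fold change (bars, no error available) of listed genes of the amino acid lists, from the authors' deposited table, with the 5 members in black and the 2-fold limit dotted; SESN2 stands in 2 lists, and 1 listed serine and one-carbon gene is not drawn. All 6 bars of the ATF4 list, which leaves out the 5 members, lie on the higher side, to the right. Of the members, SLC7A5 and SLC3A2 lie on the higher side and SLC38A2, PHGDH and ASNS on the lower side.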

How the data were processed

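RNA was measured in 2 METTL3 knockdown and 2 scrambled control libraries of HepG2 cells. Per the submitters' processing notes the build was hg18 and the tools were TopHat 1.2.0, HTSeq, Cufflinks, Cuffdiff 1.0.3, DESeq 1.5.24 and CASAVA 1.8, with no tool tied to a table. For genes and introns the authors deposited a normalized count signal per group, its fold ratio and its log2 fold change. The isoform table holds 1 deposited FPKM per group. The exon table holds a deposited normalized count signal per library. The p-values of all 4 tables, where no limma result is named, are the authors' deposited ones. Library totals and the number of features tested are not given in the sources used here.

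Authors' values were copied, and log2 changes of isoforms were computed from FPKM. Each exon was tested two-sided with limma 3.58.1 (R 4.3.3) on log2(value + 1) over all 474 listed exons, with Benjamini-Hochberg adjustment and a threshold of 0.05. Such fold changes understate the change of low exons. The step was tested on simulated data. Symbols matched 1795 of 1977 genes, 6661 of 7251 isoforms, 2536 of 2672 introns and 449 of 474 exons. Sequences came from RefSeq promoters (GRCh38.p14) and GENCODE v29 transcripts, of which 6 of 8 listed isoforms matched, and no hg18 coordinate is printed.

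The members, lists and alternatives were chosen with earlier results of these data known. Named are all 5 members, every listed gene of a list with at most 6 in the gene table and otherwise the 6 with the smallest adjusted p, and from isoforms and introns genes with the smallest adjusted p of a list. Alternatives were a threshold of 0.01, filters on low values, pseudocounts, recentring, leaving out each library and a replicate block. A few listed genes and a sequence are not reported here.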

Additional observations from a re-analysis of the deposited data

How the results depend on the processing

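With an adjusted p under 0.01 or a mean of at least 50 normalized counts, the counts of member genes higher (2) and lower (3) did not change. Neither filter could have changed them: the authors' adjusted p was at most 4.77e-56 and the group values were at least 1337 normalized counts. Recentring on the median of each table, whose listed features lean lower, left 0 member genes, 0 member isoforms and 0 member introns at least 2-fold lower. SLC38A2 then stood at -0.41, PHGDH at -0.39 and ASNS at -0.05 (log2). The median of a table of changed features is no neutral centre. Among introns the recentred log2 change turned positive for ASNS intron 12 (0.062) and for SLC38A2 introns 1 (0.023), 2 (0.021), 3 (0.039), 4 (0.034), 5 (0.13), 6 (0.0014), 8 (0.27), 9 (0.14), 10 (0.20) and 13 (0.041). Recentring also took the lower genes of the 8 lists from 9 to 3, an alternative chosen after seeing the data. At an adjusted p under 0.01, ASNS intron 12 and SLC38A2 intron 10 lost their calls, leaving 12 member introns lower. For SLC3A2 exon 11, the log2 difference ran from -0.10 to 0.14 when each library was left out in turn, with no call. That leaves 1 library in an arm, and that lone library is assumed to vary like the others. Recentred, it was 1.26 and passed (limma, adjusted p = 0.00394). Of the 474 exons, 456 passed in the main test and 297 when recentred. Dropping exons whose mean fell below 50 left fewer to test, and 271 of those passed. How many were left is not given here, so 271 cannot be read as a share of the 474. Over the listed exons, deviations from the group means were hardly correlated by replicate number (0.0012). The authors chose these exons for their group differences, so the value cannot show whether the libraries were handled in pairs. With a replicate block the difference of SLC3A2 exon 11 was 0.0204 (limma, adjusted p = 0.924). Library depth is unknown, and 2 libraries per group place the exon's difference only between -0.45 and 0.49.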

Other observations

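Beyond the gene table, introns and isoforms of the same pathways moved in both directions. Among all listed introns 28.3% were higher and 71.7% were lower. SLC6A6, the taurine transporter, had 5 listed introns (1, 5, 9, 10 and 11), all higher like the gene, with intron 10 at 64.4 normalized counts in control cells and 215 after depletion (authors' deposited table, adjusted p = 1.25e-05). The glycine transporter SLC6A9 had 2 listed introns, both lower, intron 2 going from 284 to 104 normalized counts (authors' deposited table). For LARS1, the leucyl-tRNA synthetase, intron 17 was lower at 262 against 60.6 normalized counts, and for IARS1, the isoleucyl enzyme, intron 4 was higher at 108 against 243 (authors' deposited table, control first). VEGFA, a growth factor that ATF4 can induce, had intron 4 at 221 normalized counts in control cells and 36.4 after depletion (authors' deposited table). Intron 6 of VEGFA fell from 79.9 to 23.3 normalized counts. Listed isoforms of VEGFA fell from 5.06 to 2.48 FPKM and from 0.134 to 0 FPKM (authors' deposited table). The genes LARS1, IARS1 and VEGFA are not listed at gene level, so whether these introns moved apart from their genes was not tested.

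In the mTORC1 pathway, RPTOR, the scaffold subunit of the complex, had intron 2 at 1593 normalized counts in control cells and 570 after depletion (authors' deposited table). An isoform of the kinase RPS6KB1 was lower, at 20.2 against 9.30 FPKM, while isoforms of the folliculin partners FNIP1 (0.697 against 4.32 FPKM) and FNIP2 (3.04 against 6.87 FPKM) were higher (authors' deposited table, control first). Isoforms of the whole list numbered 11 higher and 5 lower, beside 46.7% and 53.3% of all listed isoforms. In 2 libraries per group, exon 4 of LAMTOR5, a subunit of the Ragulator complex, had 93.1 and 91.0 normalized counts in control cells and 46.0 and 55.7 after depletion, with no overlap (log2 difference -0.85, limma adjusted p = 0.00800). Exon 30 of the merged locus of SHMT1 and SMCR8 had 71.7 and 56.5 in control cells and 19.1 and 30.6 after depletion, also without overlap (log2 difference -1.36, limma adjusted p = 0.00963). These exons too had been chosen by the authors on the same libraries. Of the 474 listed exons 96.2% passed the same test, so passing it does not set these exons apart. The share of listed exons without overlap is not given here.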
